A study of Mus musculus with 6 samples.

Results

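The genes that encode heat shock proteins and their J-domain cochaperones were followed in mouse tibialis anterior, the shin muscle that lifts the foot and is made up mostly of fast fibres. RNA-seq had been run on 3 samples of young C57BL/6 mice aged 3 months and 3 of aged mice aged 18 months, with no treatment or allele named in the labels. Members were the genes whose symbol begins with Hsp or Dnaj, together with Cryab and Bag3, without the proteoglycan gene Hspg2 and without 3 pseudogenes. The deposited tables hold 51 such genes among 11239. They comprise 7 small heat shock proteins, 11 of the Hsp70 family with its Hsp110 branch, 3 of the Hsp90 family, 28 J-domain genes (3 of class A, 10 of class B and 15 of class C) and 2 Hsp70 partners, Bag3 and Hspbp1. The age groups were defined by the labels alone, which do not say whether each sample came from its own animal, so p-values measure the spread between these samples.

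Molecular chaperones hold or refold proteins that have lost their shape. Small heat shock proteins bind unfolding clients without using ATP, and in muscle they sit on the Z-disc, desmin and filamin. Hsp70 proteins then fold the client in cycles of ATP hydrolysis that J-domain proteins start and nucleotide exchange factors end, and Hsp90 finishes the folding of kinases, receptors and myosin. A heat or protein-folding stress raises many of these genes through heat shock factor 1, which binds repeated units of the letters GAA in their promoters.

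Levels are given as FPKM, fragment counts scaled by transcript length and library size, as the authors deposited them. Fold changes are ratios of the mean FPKM of the ages. Log2 changes and tests are on the log2(FPKM + 1) scale, from limma. Benjamini-Hochberg adjustment was over the 7690 genes whose mean reached 1 FPKM, and a gene is called at an adjusted p under 0.05. Of the 51 members 49 reached that minimum. Aged muscle was higher for 17 of them and lower for 9, and 23 were not called, so that 53.1% were called. Among all genes tested, 51.8% were called, 27.3% higher and 24.5% lower, so the members' share of calls was close to that of the whole table. The libraries of the ages did not overlap for 33 of the 49 members and for 62.8% of all genes tested. The members' median change was 0.14 and that of all genes 0.02. By family, among the small heat shock proteins 4 of 7 fell and 1 rose, with a median of -0.36. Of the 3 Hsp90 genes 2 rose, and of the 11 Hsp70 genes 3 rose and 2 fell, with medians of 0.40 and 0.16. In the J-domain genes tested, 11 of 26 rose and 2 fell, with a median of 0.11. A change of at least 1.5-fold with a call was found for 18.2% of all genes. Among the members 5 made it, of which 4 were small heat shock proteins and the other was Hsp90aa1. In a bulk sample fewer cells of a type and less RNA per cell cannot be told apart.

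**Figure D1:**
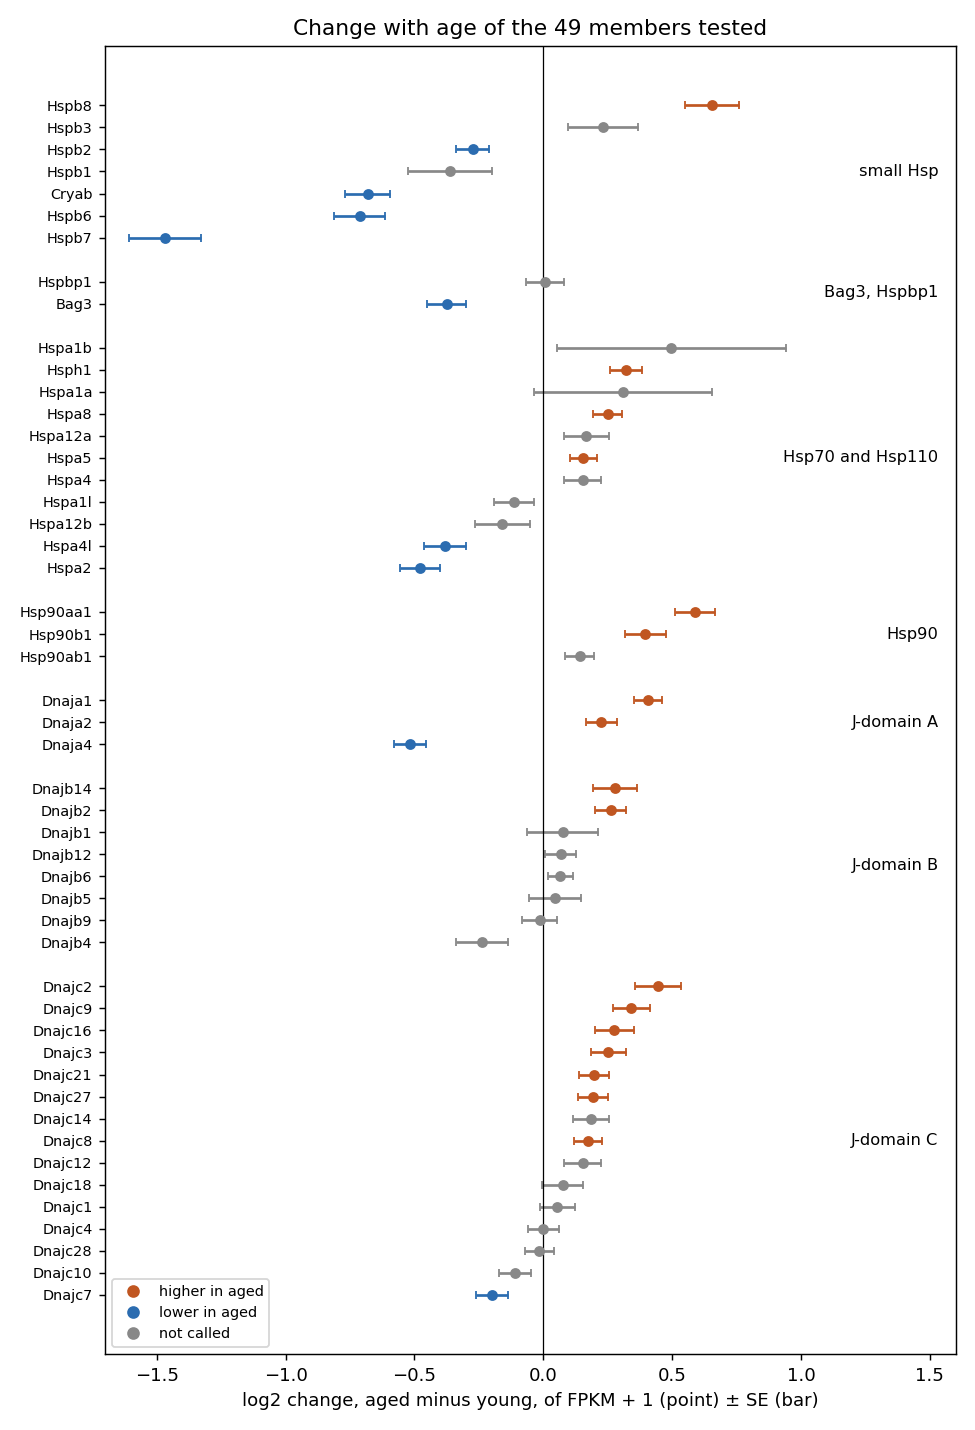
Log2 change of each of the 49 members tested, aged minus young, with its standard error, by family. The horizontal axis is the difference in log2(FPKM + 1), and the colour tells whether limma called the gene. Hspb7 lies farthest from 0 at -1.47, and Hspb8 is the member farthest to the right at 0.66.

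Promoter letters are shown for some genes in which heat shock control is well known and for some called genes that hold the same letters. Dnajb6 is shown though it was not called, and Dnajc27, called higher and holding a pair, is not shown. RefSeq promoters on GRCm38.p6 were found for 43 members. Cryab, Hspb2, Hspa8, Hsp90aa1, Hsp90ab1, Dnajc2, Dnajc12 and Dnajc18 had none there, so their promoters were not searched. In the 250 bases before each RefSeq start, 2 units facing each other, GAANNTTC or TTCNNGAA, were searched. A gene with several starts was counted if any of its windows held a match. Only exact letters were counted, here and for the rows of 3 units below, so units with a mismatch were missed. Each reads the same on both strands. At least 1 such pair was found in 12 of the 43 members, 27.9%, and in 14.5% of 27025 genes. Among members called higher 3 of 14 held a pair (Dnaja1, Dnajc27 and Hsph1), among those called lower 2 of 7 (Dnaja4 and Hspb6), and among those not called 7 of 20. The letters therefore occurred in genes that rose, fell and were not called. A match describes the letters and is no evidence of binding, and the lack of an exact match does not show that an element is absent. The inducible Hsp70 genes Hspa1a (chr17:34972157-34972406, minus strand) and Hspa1b (chr17:34959239-34959488, minus strand) and the small heat shock protein gene Hspb1 (chr5:135887669-135887918, plus strand) are given with the whole 250 bases and the pairs in capitals:
Hspa1a: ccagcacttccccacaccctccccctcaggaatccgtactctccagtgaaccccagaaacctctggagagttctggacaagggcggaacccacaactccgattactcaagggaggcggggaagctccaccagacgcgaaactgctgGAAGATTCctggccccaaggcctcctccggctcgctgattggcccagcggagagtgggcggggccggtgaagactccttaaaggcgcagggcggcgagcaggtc
Hspa1b: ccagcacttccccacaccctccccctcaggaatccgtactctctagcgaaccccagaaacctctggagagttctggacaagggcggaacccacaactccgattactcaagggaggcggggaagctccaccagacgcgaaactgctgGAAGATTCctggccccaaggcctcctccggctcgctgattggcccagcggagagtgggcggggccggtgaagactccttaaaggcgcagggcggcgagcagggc
Hspb1: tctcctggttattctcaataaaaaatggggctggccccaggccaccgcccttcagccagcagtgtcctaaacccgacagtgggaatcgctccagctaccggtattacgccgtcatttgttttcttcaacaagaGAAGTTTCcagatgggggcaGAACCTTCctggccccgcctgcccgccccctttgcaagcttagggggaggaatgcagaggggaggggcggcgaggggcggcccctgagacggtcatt
The windows of Hspa1a and Hspa1b had the same letter at 247 of 250 positions, with the pair beginning 104 bases before the start in both. In Hspb1 the pairs began 117 and 97 bases before the start.

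For the other genes the 30 bases around the match are given, again with the match in capitals. Hsph1 (chr5:149636351-149636380, minus strand) and Dnaja1 (chr4:40722333-40722362, plus strand) were called higher, and Dnaja4 (chr9:54699458-54699487, plus strand) and Hspb6 (chr7:30553170-30553199, plus strand) lower. Dnajb6 (chr5:29735844-29735873, plus strand) was not called, and was the only one of the 43 members with a row of 3 units, GAANNTTCNNGAA or TTCNNGAANNTTC, which 0.514% of all genes held:
Hsph1: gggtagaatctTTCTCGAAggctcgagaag
Dnaja1: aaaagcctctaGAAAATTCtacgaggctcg
Dnaja4: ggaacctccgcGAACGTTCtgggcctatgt
Hspb6: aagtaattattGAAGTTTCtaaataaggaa
Dnajb6: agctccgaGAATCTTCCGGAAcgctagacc
Positions are counted from the most upstream RefSeq start whose window held a match. The match began 33 bases before that start in Hsph1, 124 in Dnaja1, 90 in Dnaja4, 120 in Hspb6 and 46 in Dnajb6. The windows before the other RefSeq starts of Dnaja1, Dnaja4 and Hspb6 held no pair. Dnaja4 held another pair 52 bases before the same start, and from a second annotated start the match lay at -54 in Hsph1 and -127 in Dnajb6. The 250 bases before the start overlapped annotated exons of these or other genes, by 40 bases in Hsph1, 218 in Dnaja1, 150 in Dnaja4, 45 in Hspb6 and 250 in Dnajb6, so part of each window is transcribed sequence by that annotation.

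Among the small heat shock proteins, the genes with the highest levels in young muscle fell and the partner of Bag3 rose. Hspb7 (chr4:141420779-141425311), a filamin C-binding member found mostly in heart and skeletal muscle, had 314, 341 and 297 FPKM in young replicates 1, 2 and 3 and 145, 98.3 and 103 FPKM in aged replicates 1, 2 and 3. Every aged library was below every young one. The mean went from 317 ± 21.9 to 116 ± 25.8 FPKM (SD, n = 3 each), 2.74-fold lower, and the log2 change was -1.47 ± 0.14 (SE, adjusted p = 0.000257). Hspb6 (chr7:30552178-30555443), also called Hsp20, an actin-associated target of protein kinase A, had 1031, 1116 and 1022 FPKM in the young and 669, 724 and 550 FPKM in the aged libraries. The groups did not overlap, and it fell by 0.71 ± 0.10 on the log2 scale (adjusted p = 0.00124). Cryab (chr9:50751325-50756636), alpha-B crystallin, which chaperones desmin and in human is mutated in a desmin-related myopathy, had 732, 714 and 724 FPKM when young and 460, 395 and 504 FPKM when aged. The young libraries lay close together, and all aged ones were below them. Cryab fell by 0.68 ± 0.09 on the log2 scale (adjusted p = 0.000814).

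Hspb2 (chr9:50751078-50752354) lies head to head with Cryab and binds the myotonic dystrophy kinase DMPK. It had 35.0, 35.6 and 37.0 FPKM in the young and 29.3, 27.8 and 31.6 FPKM in the aged libraries. Again no libraries of the groups overlapped, and Hspb2 fell by 0.27 ± 0.06 (adjusted p = 0.00968), less than Cryab in log2 terms. The ratio of Cryab to Hspb2 FPKM was 20.9, 20.05 and 19.6 in young and 15.7, 14.2 and 16.0 in aged libraries. Both genes are annotated on opposite strands and share 252 exonic bases, 17.0% of those of Cryab and 30.2% of those of Hspb2. No source used here gives the strandedness of the libraries, so reads from the shared bases could be counted for either gene.

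Hspb8 (chr5:116408491-116422864), or Hsp22, delivers damaged filamin and other Z-disc clients to Bag3 for autophagy. Its levels were 146, 141 and 166 FPKM in the young and 236, 209 and 273 FPKM in the aged libraries. It was the only small heat shock protein called higher, with all aged libraries above all young ones and a 1.59-fold higher mean (log2 change 0.66 ± 0.10, adjusted p = 0.00207). Its partner Bag3 (chr7:128523616-128546981), which bridges Hspb8 and Hsp70, had 65.0, 75.1 and 68.5 FPKM when young and 54.6, 55.7 and 49.7 FPKM when aged. All aged libraries were the lower ones, and Bag3 fell by 0.38 ± 0.07 on the log2 scale (adjusted p = 0.00492). The partners thus changed in opposite directions. Within a library the ratio of Hspb8 to Bag3 was 2.25, 1.88 and 2.42 in young and 4.33, 3.76 and 5.50 in aged muscle. The ratio of Hspb6 to Hspb8 was 7.05, 7.91 and 6.17 in young and 2.83, 3.46 and 2.02 in aged libraries. Neither ratio overlapped between the ages. This follows from the single genes, since Hspb8 rose and Bag3 and Hspb6 fell without overlap, and it is no further result.

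The remaining small members were not called. Hspb1 (chr5:135887919-135889563), Hsp25 of the mouse, an actin-binding and stress-inducible member, had 221, 248 and 327 FPKM in the young and 242, 200 and 174 FPKM in the aged libraries. The groups overlapped, since aged replicate 1 lay above young replicate 1, and the log2 change was -0.36 ± 0.16 (adjusted p = 0.0931). Without aged replicate 1 it was -0.49 with an adjusted p of 0.0398. That was the only alternative that called it, and over all of them the change ran from -0.49 to -0.20. Of the 50-base stretches of Hspb1 transcripts 48.8% also occur in the pseudogene Hsp25-ps1, so its count is uncertain. Hspb3, which pairs with Hspb2, had 10.8, 10.5 and 11.4 FPKM when young and 11.6, 11.2 and 16.7 FPKM when aged, with aged replicate 3 above the rest (log2 change 0.23, adjusted p = 0.184). Hspbp1, an exchange factor of Hsp70, had means of 30.1 and 30.2 FPKM (adjusted p = 0.953).

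**Figure D2:**
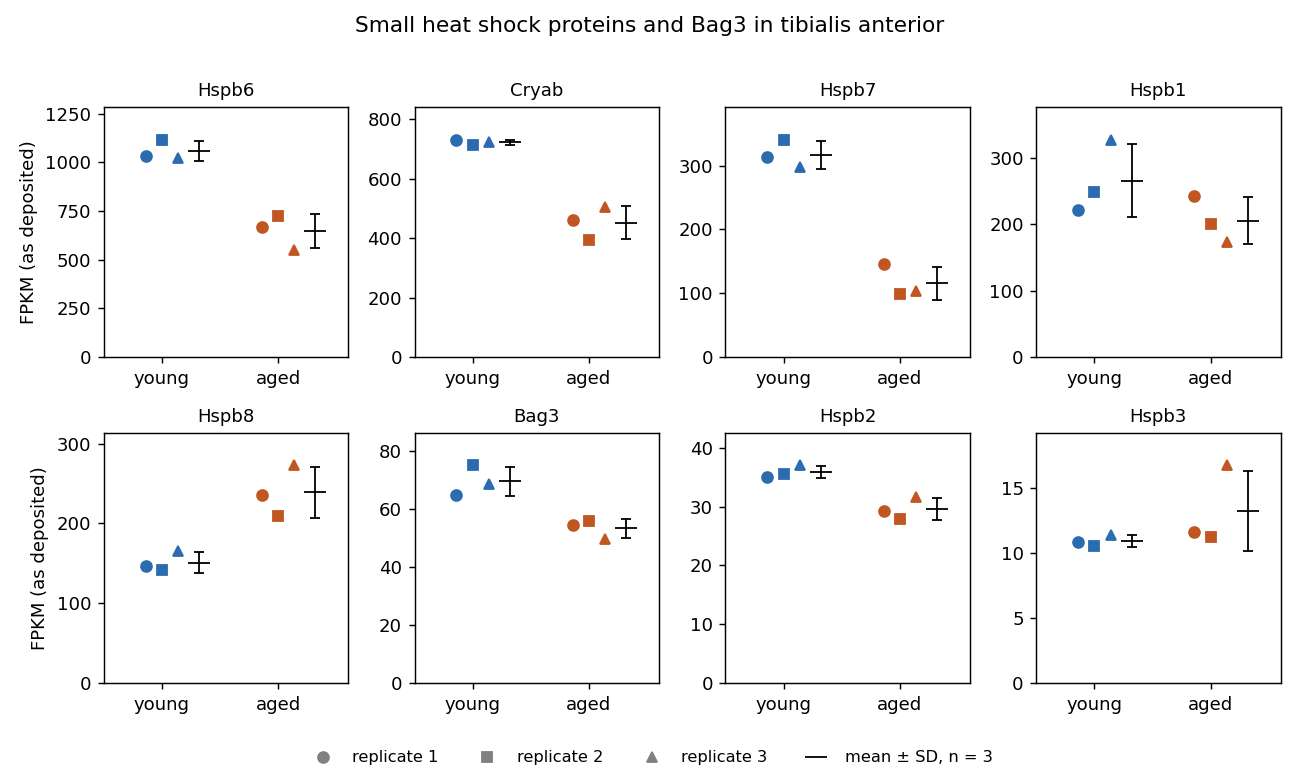
FPKM of the small heat shock proteins and of Bag3 in each library, with the mean ± SD of each age (n = 3). The vertical axis is FPKM as deposited and each point is 1 library. Hspb7, Hspb6, Cryab, Hspb2 and Bag3 lie lower and Hspb8 higher in all 3 aged libraries, and the points of Hspb1 and Hspb3 overlap.

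In the Hsp70 family the constitutive gene and the Hsp110 gene Hsph1 rose by modest amounts. Hspa8 (chr9:40800984-40810087), Hsc70, the abundant constitutive Hsp70, had 558, 578 and 578 FPKM in the young and 664, 716 and 661 FPKM in the aged libraries. All aged libraries were higher, 1.19-fold in the mean, and the log2 change was 0.25 ± 0.06 (adjusted p = 0.00792). Of its 50-base stretches 38.6% occur in other annotated genes, most of them in the pseudogene Gm15459. Hsph1 (chr5:149614287-149636376), Hsp105, releases nucleotide from Hsp70 and takes part in taking aggregates apart. It had 35.6, 37.7 and 37.4 FPKM when young and 49.4, 44.7 and 44.9 FPKM when aged. Hsph1 was higher in each aged library, 1.26-fold in the mean (log2 change 0.32 ± 0.06, adjusted p = 0.00457). Hspa5 (chr2:34771970-34777547), BiP, the Hsp70 of the endoplasmic reticulum, had 87.9, 83.7 and 85.0 FPKM in the young and 98.4, 92.5 and 95.3 FPKM in the aged libraries. Its log2 change of 0.16 ± 0.05 was just past the threshold (adjusted p = 0.0403). With the replicate number as a block the adjusted p was 0.0584, and without 1 library, other than aged replicate 2, it lay between 0.0635 and 0.122.

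Other members of the family fell from low levels. Hspa2 (chr12:76404176-76406934), best known from male germ cells, had 6.24, 7.01 and 6.02 FPKM in the young and 4.44, 4.08 and 4.45 FPKM in the aged libraries. The groups did not overlap and it fell by 0.48 ± 0.08 on the log2 scale (adjusted p = 0.00206). Hspa4l (chr3:40744495-40796103), an Hsp110 of testis and other tissues, had 4.40, 4.46 and 5.12 FPKM when young and 3.07, 3.40 and 3.57 FPKM when aged. It too was lower in every aged library (log2 change -0.38 ± 0.08, adjusted p = 0.00724). Of the 3 Hsp110 genes 1 thus rose and 1 fell, while the third, Hspa4, had a log2 change of 0.15 (adjusted p = 0.107).

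The heat-inducible pair Hspa1a (chr17:34969190-34972156) and Hspa1b (chr17:34956436-34959238) stayed low and had the largest standard errors of the 49 members tested. Hspa1a had 1.21, 1.18 and 3.17 FPKM in the young and 4.27, 2.30 and 1.21 FPKM in the aged libraries. Hspa1b had 1.17, 1.13 and 1.99 FPKM in the young and 6.27, 1.997 and 0.786 FPKM in the aged ones. Aged replicate 1 was highest for both, young replicate 3 was the highest young library for both, and the ages overlapped. The log2 changes were 0.31 ± 0.35 and 0.50 ± 0.44 (adjusted p = 0.477 and 0.372). Without aged replicate 1 they were -0.01 and -0.05. Reads cannot be told apart over much of the pair, since 62.3% of the 50-base stretches of the Hspa1b transcript also occur in Hspa1a. Summed over both genes the level was 2.39, 2.30 and 5.16 FPKM in the young and 10.5, 4.29 and 1.99 FPKM in the aged libraries. Young replicate 3 was also the library with the highest Hspb1, and it had 22.6 FPKM of the immediate early gene Atf3, against 1.58 and 1.53 FPKM in the other young libraries and 3.97, 2.15 and 1.20 FPKM in the aged ones. The part of early stress gene activity in these levels was not tested. Hspa1l, Hspa12a and Hspa12b were not called either, with log2 changes of -0.11, 0.17 and -0.16. Without aged replicate 2, Hspa12b had -0.28 and an adjusted p of 0.0164. No other alternative called it, and over all of them its change ran from -0.28 to -0.10.

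In the Hsp90 family all 3 genes were higher in each aged library and 2 of them were called. Hsp90aa1 (chr12:110690605-110702728), the stress-inducible cytosolic form, which in zebrafish is needed with Unc45b to fold muscle myosin, had 27.9, 28.1 and 27.2 FPKM in the young and 45.7, 44.0 and 37.6 FPKM in the aged libraries. Its mean was 1.53-fold higher in aged muscle (log2 change 0.59 ± 0.08, adjusted p = 0.000983). Of its 50-base stretches 47.5% occur in other annotated genes, chiefly the pseudogene Gm12346. Hsp90b1 (chr10:86690209-86705509), Grp94 of the endoplasmic reticulum, had 30.3, 25.2 and 27.0 FPKM when young and 38.4, 34.4 and 36.6 FPKM when aged. All aged libraries were above the young ones, and the log2 change was 0.40 ± 0.08 (adjusted p = 0.00545). Hsp90ab1 (chr17:45567775-45573271), the constitutive cytosolic form, had 1319, 1398 and 1366 FPKM in the young and 1561, 1440 and 1503 FPKM in the aged libraries. The ages did not overlap, yet the log2 change of 0.14 ± 0.06 missed the threshold (adjusted p = 0.0690). The adjusted p was 0.0470 without aged replicate 2 and 0.0208 when libraries were rescaled without the 20 highest genes.

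The ratio of Hsp90aa1 to Hsp90ab1 FPKM within a library does not depend on how libraries are scaled. It was 0.0212, 0.0201 and 0.0199 in the young and 0.0293, 0.0305 and 0.0250 in the aged libraries. Every aged ratio was above every young one, with a mean log2 difference of 0.47. An exact two-sided permutation test gave p = 0.1, the smallest that 3 against 3 libraries can give.

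The class A J-domain proteins, which have the full domain set of bacterial DnaJ and bring clients to cytosolic Hsp70, were all called, but not in 1 direction. Dnaja1 (chr4:40722150-40737149) had 20.9, 20.2 and 19.9 FPKM in the young and 27.5, 27.5 and 26.9 FPKM in the aged libraries. It rose by 1.34-fold, without overlap (log2 change 0.41 ± 0.05, adjusted p = 0.000935). Dnaja4 (chr9:54698873-54716315), a heat-inducible class A gene, had 49.5, 48.98 and 54.7 FPKM when young and 36.3, 34.8 and 35.0 FPKM when aged. It was 1.44-fold lower in aged muscle, in every library (log2 change -0.52 ± 0.06, adjusted p = 0.000631), and 44.1% of its exonic bases overlap Wdr61 on the other strand. The ratio of Dnaja1 to Dnaja4 went from 0.423, 0.412 and 0.364 to 0.759, 0.790 and 0.768. Dnaja2 (chr8:85537633-85555344), the class A gene with the highest level, had 128, 122 and 120 FPKM in the young and 146, 136 and 151 FPKM in the aged libraries. It rose by 0.23 ± 0.06 (adjusted p = 0.0164), with an adjusted p of 0.0548 without young replicate 2 and 0.0626 without young replicate 3.

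Class B, which lacks the zinc finger of class A, had 2 called genes among the 8 tested. Dnajb2 (chr1:75236406-75245692), which carries ubiquitin-binding motifs and sends clients to the proteasome, had 78.0, 77.4 and 76.9 FPKM in the young and 95.4, 97.4 and 86.8 FPKM in the aged libraries. All aged libraries were higher (log2 change 0.26 ± 0.06, adjusted p = 0.00890). Dnajb14 (chr3:137867675-137916557), anchored in the endoplasmic reticulum membrane, had 3.82, 3.87 and 4.27 FPKM when young and 4.65, 4.87 and 5.67 FPKM when aged. Its change of 0.28 ± 0.09 (adjusted p = 0.0264) lost the call without young replicate 1, young replicate 2 or aged replicate 3, with adjusted p between 0.0713 and 0.0835. Dnajb6 (chr5:29735688-29818134), a Z-disc cochaperone that is mutated in a human limb-girdle muscular dystrophy, had the highest deposited FPKM of the class (Dnajb5 was higher on the longest coding length), with 104, 103 and 102 in the young and 108, 110 and 107 in the aged libraries. The groups did not overlap, but the log2 change was 0.07 ± 0.05 (adjusted p = 0.275). Dnajb4, a partner of Hsp70 in heart and skeletal muscle, had 31.8, 29.5 and 39.5 FPKM when young and 28.3, 27.3 and 28.7 FPKM when aged. Its log2 change was -0.24 ± 0.10 (adjusted p = 0.0833), which was called with the replicate number as a block (adjusted p = 0.0464) and without young replicate 2 (adjusted p = 0.0426). Without young replicate 3, its highest library, the change was -0.12 (adjusted p = 0.216). Dnajb1, the main heat-inducible partner of Hsp70, had means of 3.05 and 3.30 FPKM (adjusted p = 0.669). Dnajb5, Dnajb9 and Dnajb12 had log2 changes of 0.04, -0.01 and 0.07 and were not called. The germ-cell genes Dnajb13 and Dnajb3 were under the minimum. In the limma fit without a minimum Dnajb13 was called lower (log2 change -0.16, adjusted p = 0.0261) and Dnajb3 was not called (-0.03, adjusted p = 0.255). Dnajb13 had 32, 19 and 16 recovered fragments in the young and 10, 8 and 3 in the aged libraries, and Dnajb3 had 3, 2 and 1 in the young and 0 in each aged one, where a count of 0 allows up to 3.

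**Figure D3:**
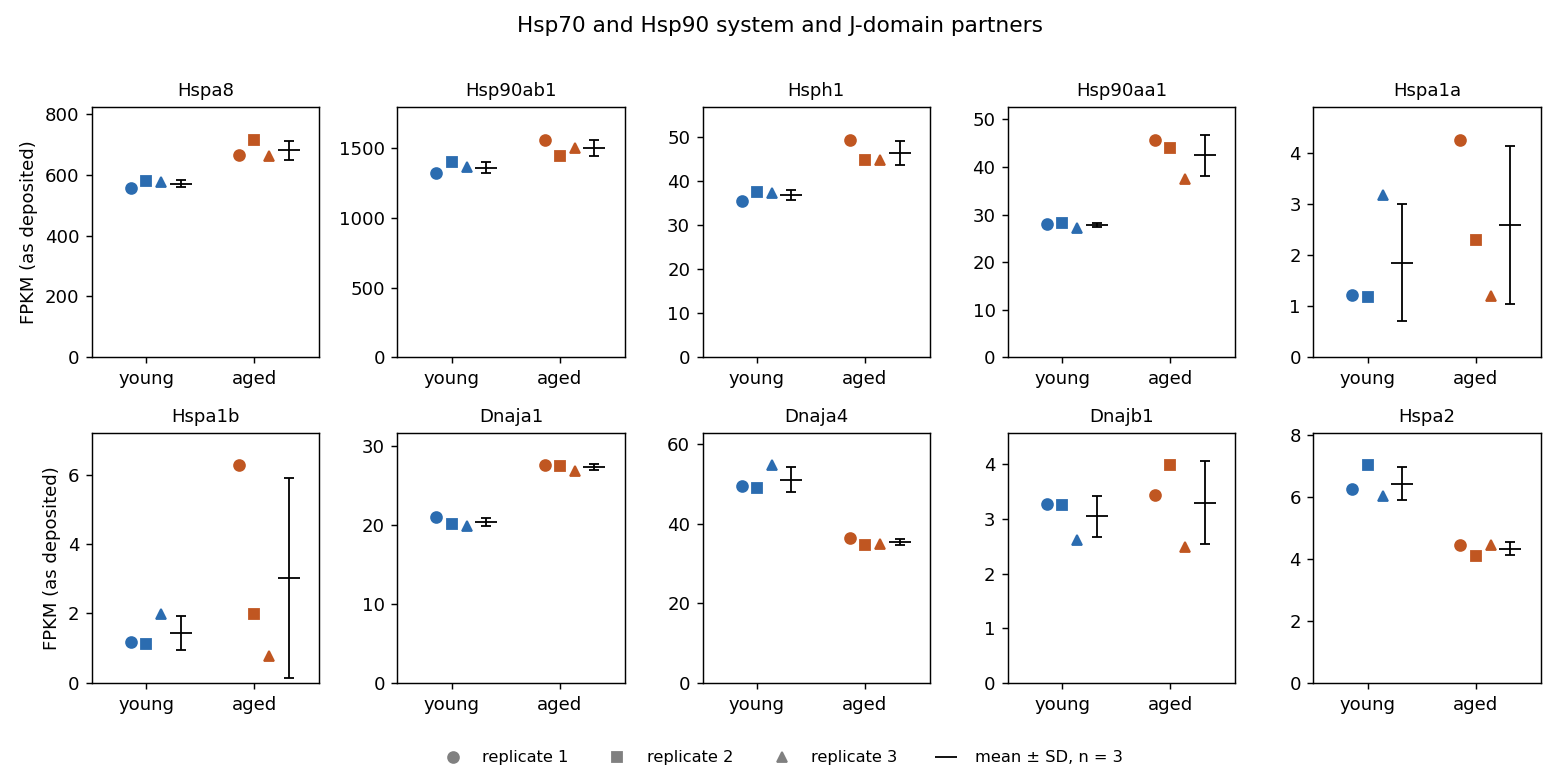
FPKM in each library of genes of the Hsp70 family, of the cytosolic Hsp90 genes and of 3 J-domain partners. The vertical axis is FPKM as deposited, each point is 1 library, and bars show the mean ± SD (n = 3). Hspa8, Hsph1, Hsp90aa1 and Dnaja1 lie higher and Dnaja4 and Hspa2 lower in all aged libraries, while Hspa1a, Hspa1b and Dnajb1 overlap between the ages.

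Class C genes share little beyond the J domain and serve many separate tasks. Of the 15, 7 rose, 1 fell and 7 were not called. Dnajc2 (chr5:21757267-21785251), the ribosome-associated partner that helps Hsp70 meet new chains, had 11.3, 11.4 and 11.3 FPKM in the young and 16.5, 13.7 and 17.4 FPKM in the aged libraries. It showed the largest change of the J-domain genes called higher, 1.40-fold without overlap (log2 change 0.45 ± 0.09, adjusted p = 0.00520). Dnajc9 (chr14:20384638-20388910), which guides Hsp70 to histones, had 8.67, 7.85 and 9.09 FPKM when young and 10.8, 10.8 and 11.6 FPKM when aged. It was higher in each aged library (log2 change 0.34 ± 0.07, adjusted p = 0.00653). Dnajc7 (chr11:100582818-100620168), a tetratricopeptide protein that binds both Hsp70 and Hsp90 and the class C gene with the highest deposited FPKM (Dnajc21 was higher on the longest coding length), had 81.6, 74.7 and 77.9 FPKM in the young and 70.1, 63.7 and 69.8 FPKM in the aged libraries. It fell by 0.20 ± 0.06 (adjusted p = 0.0300), and the call was lost without young replicate 1, young replicate 3 or aged replicate 2, with adjusted p between 0.0691 and 0.111.

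The remaining class C genes called higher changed by less than 0.3 on the log2 scale, all without overlap. Dnajc16 had 12.7, 12.98 and 12.8 FPKM in the young and 17.4, 15.4 and 14.5 FPKM in the aged libraries (log2 change 0.28 ± 0.08, adjusted p = 0.0177), and without young replicate 1 the adjusted p was 0.0571. Dnajc3, P58IPK, a cochaperone of BiP that also inhibits the kinase PERK, had 7.80, 7.31 and 6.90 FPKM when young and 8.88, 8.64 and 9.25 FPKM when aged (log2 change 0.25 ± 0.07, adjusted p = 0.0164). Its adjusted p was 0.0517 without young replicate 2 and 0.0615 without young replicate 3. Dnajc21, which acts in the maturation of the large ribosomal subunit, had 48.4, 49.03 and 48.7 FPKM in the young and 57.5, 52.5 and 58.3 FPKM in the aged libraries (log2 change 0.20 ± 0.06, adjusted p = 0.0243). Dnajc27, a Rab-like protein with a J domain, had means of 26.8 and 30.7 FPKM (adjusted p = 0.0256). Dnajc8, of the spliceosome, had means of 46.7 and 52.8 FPKM (adjusted p = 0.0302). The calls of these last 3 did not hold without each library. Without 1 library, other than aged replicate 2, Dnajc21 had an adjusted p between 0.0591 and 0.0762 and Dnajc8 between 0.0570 and 0.1004, and Dnajc27 had between 0.0614 and 0.0985 without young replicate 1, young replicate 2 or aged replicate 3. Dnajc1, Dnajc4, Dnajc10, Dnajc12, Dnajc14, Dnajc18 and Dnajc28 were not called, with log2 changes from -0.11 for Dnajc10, a disulfide reductase of the endoplasmic reticulum, to 0.19 for Dnajc14. Dnajc14 had an adjusted p of 0.0539.

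By compartment, 8 of the 11 genes listed for the endoplasmic reticulum were held and tested. The compartment lists do not assign every member, so these are no full counts of a compartment. Hspa5, Hsp90b1, Dnajb14 and Dnajc3 rose, none fell and 4 were not called, with a median log2 change of 0.11. Of the 9 genes listed as mitochondrial 1 was in the tables, Dnajc4, at means of 18.2 and 18.3 FPKM (adjusted p = 0.9997). The others were not analysed here. Of 12 cytosolic members listed as stress-inducible, 4 rose, 3 fell and 5 were not called, with a median of 0.19, beside 27.3% higher and 24.5% lower over all genes tested. That list does not hold Dnaja4, which is also heat-inducible and fell.

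Levels of different genes were compared per length. The length that the authors divided by could be recovered for every gene, and for 40 of the 51 members it was within 0.5 bases of the mean length over all annotated transcripts, short ones included. Deposited FPKM therefore overstates genes with short annotated isoforms, which alters the order of genes and not the comparison of ages within a gene. On the deposited scale Hsp90ab1 had the highest mean over the 6 libraries, 1431 FPKM, ahead of Hspb6 with 852 FPKM. With the length of the longest coding transcript, Hspb6 was first with 780 FPKM, followed by Hsp90ab1 with 500.4, Cryab with 438, Hspa8 with 322, Hspb1 with 232, Hspb7 with 216 and Hspb8 with 138 FPKM. On that scale Hspb6 stood at 967 and Cryab at 539 FPKM in the young mean, and at 593 and 337 FPKM in the aged mean. Hsp90ab1 stood at 476 FPKM in the young and 525 FPKM in the aged mean, so it was below Cryab in young and above it in aged muscle.

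**Figure D4:**
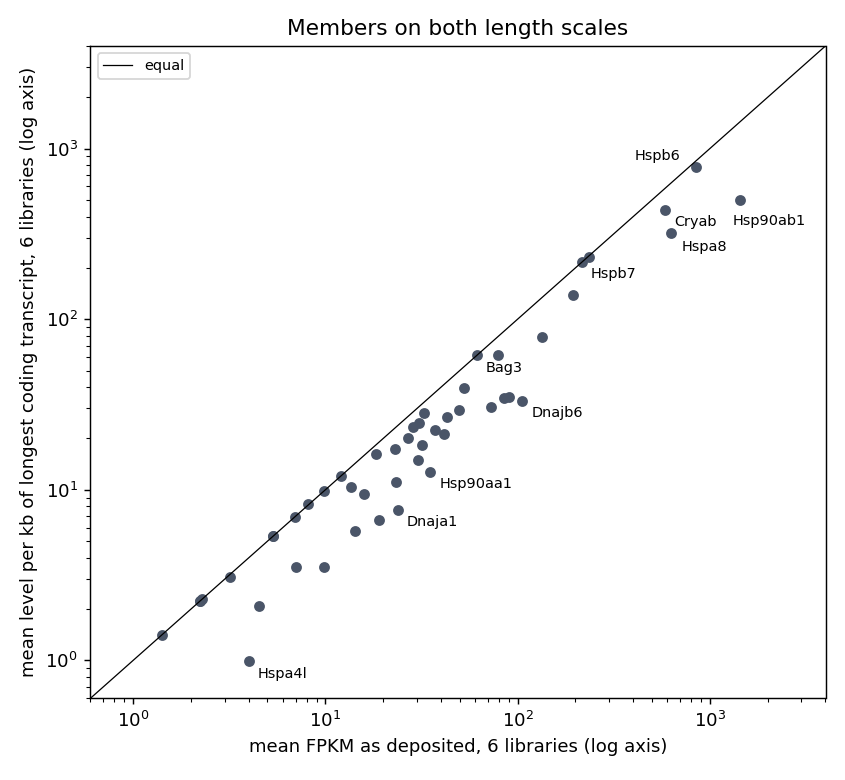
Mean FPKM of each of the 49 members tested on the deposited scale (horizontal, log axis) against its mean on the scale of the longest coding transcript (vertical, log axis). Points under the diagonal have a deposited level above that on the longest coding length. Hsp90ab1 lies at 1431 and 500.4 FPKM and Hspb6 at 852 and 780 FPKM.

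Summed on the longest coding length, the small heat shock proteins went from 2165, 2279 and 2255 FPKM in the young to 1543, 1435 and 1390 FPKM in the aged libraries. The aged mean differed from the young one by -34.8%. The Hsp70 family summed to 383, 394 and 397 FPKM in the young and 455, 472 and 444 FPKM in the aged libraries, 16.9% more. Hspa8 made up most of the Hsp70 sum, with means of 294 in the young and 350 FPKM in the aged libraries on this scale. Of the 11 Hsp70 genes 2 fell and 6 were not called. The Hsp90 family had 489, 513 and 503 FPKM and 584, 539 and 560 FPKM, 11.9% more. Most of the Hsp90 sum was Hsp90ab1, which was not called and had means of 476 and 525 FPKM on this scale. In these 3 families the ages did not overlap, and on the deposited scale the differences were -33.4%, 17.0% and 11.6%, also without overlap. The J-domain classes A, B and C summed to 4.44%, 3.81% and 9.04% more on the longest coding length. Classes A and B overlapped between the ages and class C did not, whereas on the deposited scale class B did not overlap and class C did.

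The sum over all 51 members differed by -17.1% in aged muscle on the longest coding length and by -9.21% on the deposited scale, while 17 members rose and 9 fell. Small heat shock proteins made up 60.1% ± 0.374 of the young sum and 47.3% ± 1.11 of the aged sum on the longest coding length (SD, n = 3 each). Hspb6, Cryab and Hspb7 alone went from 49.1% ± 1.56 to 34.0% ± 1.11 of it. The share of the Hsp70 family went from 10.5% ± 0.0785 to 14.9% ± 0.615, that of the Hsp90 family from 13.5% ± 0.1002 to 18.2% ± 0.470, and that of the J-domain genes from 13.6% ± 0.464 to 17.4% ± 0.753. On the deposited scale the small heat shock proteins went from 44.8% to 32.8%, and Hspb6, Cryab and Hspb7 from 36.7% to 23.4%. There the Hsp70 family went from 13.4% to 17.2%, Hsp90 from 24.8% to 30.5% and the J-domain genes from 15.3% to 17.9%. The size of each share thus depended on the length used. Shares move together by construction, and no test was made of them.

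**Figure D5:**
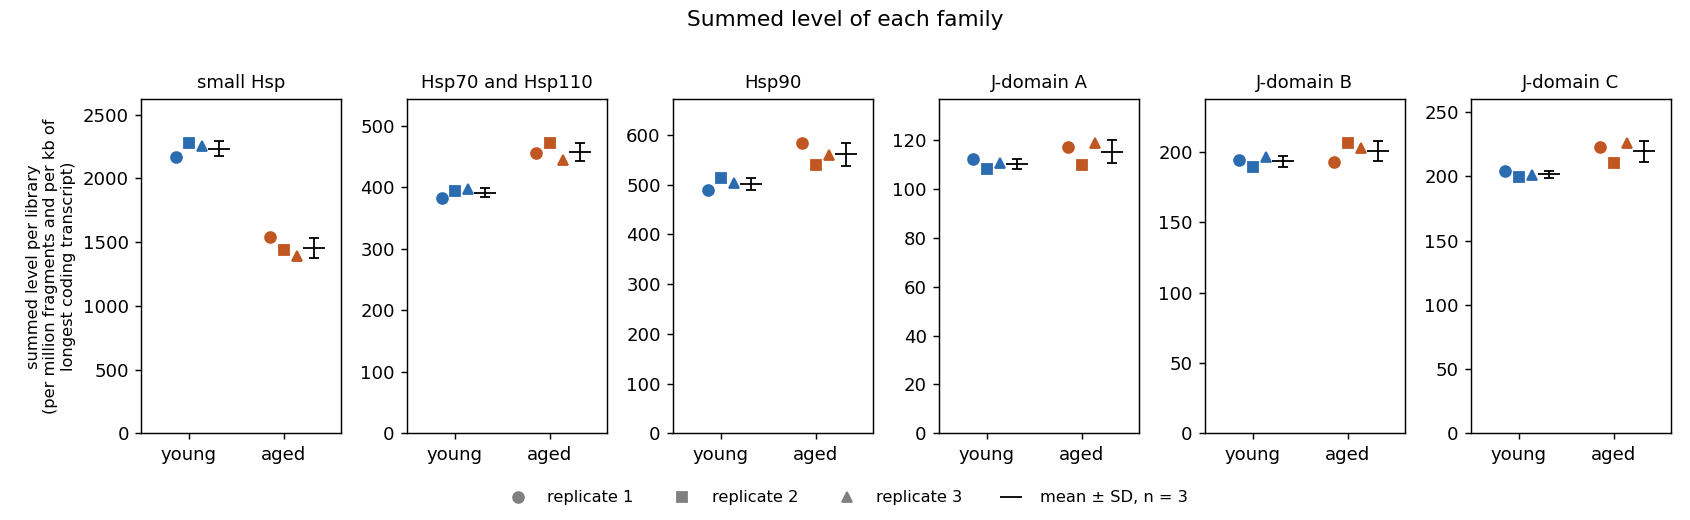
Summed FPKM of each family in each library on the scale of the longest coding transcript, with the mean ± SD of each age (n = 3). Each point is 1 library. The small heat shock proteins lie between 1390 and 1543 FPKM in aged and between 2165 and 2279 FPKM in young muscle, and the Hsp70 and Hsp90 sums are higher in every aged library.

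Genes that work with these families were taken from lists of regulators, cochaperones and clients. Over all genes tested, 27.3% were called higher and 24.5% lower. The tables hold 13 of the 23 Hsp90 cochaperones listed and 10 of the 13 exchange factors and partners of Hsp70. Of the heat shock factors, Hsf1 was not analysed here. Hsf4 had 4.11, 3.29 and 4.39 FPKM in the young and 9.15, 8.35 and 8.86 FPKM in the aged libraries. It rose by 0.99 ± 0.10 on the log2 scale without overlap (adjusted p = 0.000261), while Hsf2 had a log2 change of 0.03 (adjusted p = 0.774). Of 13 cochaperones of Hsp90 tested, 7 rose and 2 fell, with a median of 0.22. Those that rose included Ptges3, or p23 (0.45), Sugt1 (0.40) and the myosin chaperone Unc45b (0.37). Fkbp5, a glucocorticoid-induced immunophilin, fell from 119, 117 and 103 FPKM to 28.3, 47.1 and 43.3 FPKM (log2 change -1.52 ± 0.17, adjusted p = 0.000482), and Itgb1bp2, or melusin, fell by 0.40. Of 10 exchange factors and partners of Hsp70 outside the 51 members, 6 rose and none fell, with a median of 0.20. Of the members with such roles, Hsph1 rose, Bag3 and Hspa4l fell, and Hspa4 and Hspbp1 were not called. The BiP exchange factor Sil1 rose by 0.32, Bag2 by 0.29, Bag4 by 0.24 and Bag5 by 0.22.

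Among 8 genes of Bag3-mediated autophagy and its clients 1 rose and 2 fell, with a median of 0.06. The tables hold 8 of the 14 genes on that list. They hold 9 of 15 on the TRiC and prefoldin list and 4 of 9 on that of other mitochondrial chaperones. Filamin C, Flnc, the Z-disc client of Hspb7 and Bag3, had 289, 331 and 463 FPKM in the young and 265, 237 and 206 FPKM in the aged libraries and fell by 0.59 ± 0.17 (adjusted p = 0.0213). Its highest value was in young replicate 3, as for Hspb1. Synpo2, the Bag3 partner at the Z-disc, fell by 0.40, and Yap1 rose by 0.25. In the chaperonin TRiC and prefoldin list 3 of 9 rose and 1 fell (median 0.10), with Pdcl3 at 0.37, Cct6a at 0.29, Pfdn5 at 0.27 and Pfdn1 at -0.21. Of 4 other mitochondrial chaperones and import motor genes, Clpx (0.46) and Trap1 (0.29) rose and Timm44 fell by 0.49. Of 12 further genes tested from a list of stress-inducible genes 3 rose and 4 fell, with a median of -0.13, counting 3 that the immediate early list also holds. The metallothionein Mt1 fell by 1.55, the collagen chaperone Serpinh1 by 0.61 and Ier5 by 0.46. The 3 that rose were Ubb (0.35) and the cold-inducible Rbm3 (0.67) and Cirbp (0.35). All genes tested had a median of 0.02, with 27.3% called higher and 24.5% lower.

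Other properties of the libraries moved with age. The counts that follow stand beside 27.3% called higher and 24.5% called lower over all genes tested. Listed genes that the tables do not hold, or that were under the minimum, were not tested. Of 12 immediate early genes tested none rose and 4 fell (Btg2, Fosl2, Jun and Ier3), with a median of -0.19. Of 14 clock and clock output genes 4 rose and 2 fell, with Nr1d1 at 2.08, Bhlhe40 at 1.28, Per2 at -1.10 and Per1 at -0.87, and a median of 0.22. Within the aged group Dbp was 72.7 FPKM in replicate 1 against 19.2 and 31.9 FPKM, and replicate 1 was also the library with the highest Hspa1a and Hspa1b. No source used here gives the hour of collection, and its part in the levels was not tested. Fibre markers summed to between 58044 and 62963 FPKM in young and between 55166 and 60505 FPKM in aged libraries, with 2 of 5 higher and 2 lower. Markers called lower were 5 of 6 for tendon, 4 of 6 for fibro-adipogenic progenitors, 3 of 4 for macrophages, 3 of 5 for endothelium (1 higher), 1 of 3 for Schwann cells and 0 of 3 for smooth muscle. Markers called higher were 2 of 3 for adipocytes, 2 of 4 for erythroid cells and 2 of 2 for lymphocytes. The tendon sum was between 207 and 398 FPKM in young and between 91.0 and 107 FPKM in aged libraries, and no marker tested was at 0 in all libraries. The part of cell composition in the members' changes was not tested.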

How the data were processed

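RNA-seq of total RNA from tibialis anterior muscle was analysed in 3 young and 3 aged libraries. The authors deposited FPKM values, 1 table to a library. The tools named in the submitters' processing notes are bcl2fastq 2.19, TopHat and DESeq2, and the build is mm9, but 98.9% of the gene starts lie within 5000 bases of GENCODE M21 (GRCm38), so the deposited positions are read as GRCm38. The tables list 11239 genes of the 55450 annotated, by a rule that no source used here gives, 64 of them at 0 in all libraries. Symbols that had turned into dates were restored for 14 genes. The tables each hold 1 line that was left unused.

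Library totals and transcript lengths that return whole fragments were recovered from the FPKM values. In 100% of the genes they lay within 0.001 of whole fragments, and 89.7% of 2185 genes with a single transcript had the annotated length. Totals ran from 71984420 to 102135094 fragments, of which the listed genes held 80.2% to 81.3%. At these totals 3 fragments of a 1 kb transcript are 0.0294 to 0.0417 FPKM, which covers counting error only. Each pair of libraries of an age differed beyond sampling noise (chi-square of 29.0 to 73.9 per degree of freedom), so none was counted as a duplicate. Across genes, libraries of an age correlated at 0.993 to 0.996 and libraries of different ages at 0.962 to 0.975.

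Aged and young libraries were compared with limma 3.58.1 in R 4.3.3 on log2(FPKM + 1), with an empirical Bayes trend, for genes whose mean reached 1 FPKM, two-sided, with Benjamini-Hochberg adjustment over all genes tested and a threshold of 0.05. The pseudocount understates the change of low genes. The fit was tested on simulated data with 200 changed genes. The named genes were, in each family, up to 6 called members with the largest change, the member with the highest mean FPKM, and Cryab, Bag3, Hsp90aa1 and Hsf1, and in each other list up to 4 called genes with the largest change. Hsf2, Atf3, Dbp, Ubb and Cirbp, and the members that are named outside the rule with their values, were chosen after their values were seen. The members and the gene lists were chosen with earlier results of these data known. Same-numbered young and aged libraries deviated together from their group means, with correlations of 0.177, 0.182 and 0.136 over genes, against -0.192 to 0.0358 for other numbers. The labels give the numbers without saying what they share, so the pairing comes from the values alone. Alternatives covered the pseudocount, the minimum, scaling, robust estimation, voom on recovered fragments, the replicate block and leaving out each library, and an adjustment over all annotated genes was added after the data were seen. Stretches of 50 bases shared between annotated transcripts were counted from GENCODE M21.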

Additional observations from a re-analysis of the deposited data

How the results depend on the processing

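The members called higher numbered 17 and those called lower 9. Over 8 alternatives that used all libraries, the counts were 16 to 22 higher and 8 to 10 lower. With the replicate number as a block they were 16 and 10, where Hspa5 lost and Dnajb4 gained the call, and no other member's call changed. Rescaling without the 20 highest genes moved the median of all genes from 0.02 to 0.08 and gave 22 higher and 8 lower members, against 2648 higher and 1580 lower among all genes (2097 and 1885 as reported). It gave calls to Hspa4, Hsp90ab1, Dnajb6, Dnajc12 and Dnajc14 and took that of Dnajc7. Voom on the recovered fragments gave 18 and 9, with Dnajc14 added, and called 2094 genes higher and 1891 lower in all. Adjusting as if all annotated genes had been tested, an alternative chosen after seeing the data, left 7 members higher and 6 lower. Hspa8 (adjusted p = 0.0571), Dnajb2 (0.0641), Hspb2 (0.0698) and Hspa4l (0.0522) lost the call in that alternative alone. Leaving out each library in turn gave 10 to 18 higher and 8 to 10 lower, with 11 higher without young replicate 1 and 10 without young replicate 2, and a log2 difference of the Hsp90aa1 to Hsp90ab1 ratio between 0.41 and 0.55. Of the 26 called members, 13 kept the call in every alternative and 17 without each library.

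Members that reversed were all among those not called. With rescaling Dnajb9 had 0.0495 and Dnajc28 0.0481. Dnajc4 had -1.02e-05 with a pseudocount of 0.1, -0.0132 with median-of-ratios scaling and -0.000167 with voom, and Hspbp1 had -0.00766 with median-of-ratios scaling. Over the fits without 1 library the log2 change ran from -0.0126 to 0.618 for Hspa1a, -0.0528 to 0.960 for Hspa1b, -0.0393 to 0.220 for Dnajb1, -0.0248 to 0.168 for Dnajb5, -0.0589 to 0.0260 for Dnajb9, -0.0366 to 0.0186 for Dnajc28, -0.0370 to 0.0310 for Dnajc4 and -0.0425 to 0.0721 for Hspbp1. The cause was not tested. Each member tested had at least 198 fragments in every library, the fewest for Hspa1b, which shares sequence with Hspa1a. The smallest change called was 0.16, for Hspa5, and the largest not called 0.50, for Hspa1b.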
